A study of Saccharomyces cerevisiae with 11 samples.

Results

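*BSC1*, *HMS2*, *LEE1* and *SPG1* are budding yeast genes whose functions are poorly known. These 4 genes, of 5449 *Saccharomyces cerevisiae* genes measured, were chosen by the size of their log2 differences between the mutants and the wild type, which were among the largest falls or rises in *rna14-1* and *rna15-1* cells. Their differences from the wild type are therefore given as a description, without a test, whereas the genes next to them on the chromosome, which were taken by position, were tested. Genome-wide transcript levels were measured with Affymetrix yeast arrays in 11 total RNA samples. The groups were the wild-type strain W303-1B (5 arrays), *rna14-1* (3 arrays) and *rna15-1* (3 arrays). All of them are labelled *MATa* and share nutritional markers: *leu2-3*,*112* for leucine, *trp1-1* for tryptophan, *his3-11,15* for histidine, *ade2-1* for adenine and *ura3-1* for uracil. Cells grew in liquid YPAD rich medium at 30°C to the middle of logarithmic growth. Each mutant is a single strain, so what the allele does and what else that strain carries cannot be told apart. In these bulk samples, fewer cells that express a gene and less of its RNA per cell cannot be told apart either.

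Rna14 and Rna15 are subunits of cleavage factor I, which recognises signals near the end of a nascent transcript and takes part in its cleavage, polyadenylation and the termination of RNA polymerase II. Where this machinery fails, polymerases can run on past the normal end of a gene into the next one, and many transcripts change in amount. Among the genes described here, *BSC1* is named for bypass of stop codon, since readthrough of its stop codon was detected, and its product resembles the cell wall flocculin Flo11. *HMS2* encodes a relative of heat shock transcription factors, found as a high-copy suppressor of the pseudohyphal growth defect of cells lacking the ammonium permease Mep2. *LEE1* encodes a zinc finger protein of the CCCH type with no assigned function, and *SPG1* (stationary phase gene) is required for survival at high temperature in stationary phase.

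The values are log2 intensities after RMA, a normalization that brings all arrays to a common distribution, and they can be compared between arrays for one gene but not between genes. Medians over all genes lay between 10.34 and 10.40. The background of each array, taken as the 95th percentile of named probe sets whose gene is not in the *S. cerevisiae* gene table, lay between 4.19 and 4.44. Arrays of one group were similar to each other with some exceptions. Across genes, replicate 3 of *rna15-1* correlated at 0.965 and 0.964 with replicates 1 and 2, which correlated at 0.997 with each other. In the wild type, replicates 1 and 2 (0.994) and replicates 3 to 5 (0.991 to 0.996) formed separate sets, with 0.981 to 0.989 between them. These are correlations across genes, which are not independent replicates. The mating type label was also checked. The 4 genes specific to *MATalpha* cells lay between 11.4 and 14.2 on all 11 arrays, far above background, although every strain is labelled *MATa*. The 7 *MATa*-specific genes were above background on all arrays too, with mean levels of 6.90 to 7.58 in the wild type, 9.62 to 9.72 in *rna14-1* and 9.35 to 10.3 in *rna15-1*, and all 7 rose in both mutants (adjusted p below 0.01 in limma, as for 32.8% and 28.2% of all genes). All 4 *MATalpha*-specific genes rose in *rna15-1* (median log2 fold change 1.03), whereas none rose and 1 fell in *rna14-1*. The part that mating type may have in the results below was not tested.

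*BSC1* (YDL037C) lies on chromosome IV and has a coding length of 987 bp. Its log2 intensities on the 5 wild-type arrays were 9.88, 9.90, 10.21, 10.28 and 10.26. On the *rna14-1* arrays they were 5.30, 5.06 and 5.16, and on the *rna15-1* arrays 5.61, 5.08 and 5.05. Every mutant array was thus far below every wild-type array, with a gap of 4.58 between the nearest arrays for *rna14-1* and 4.26 for *rna15-1*, and the 2 mutants overlapped. The wild-type mean was 10.11 ± 0.20 (SD, n = 5), against 5.17 ± 0.12 (SD, n = 3) in *rna14-1* and 5.25 ± 0.32 (SD, n = 3) in *rna15-1*. The log2 difference from the wild type was −4.94 in *rna14-1*, a 30.6-fold lower level and the largest fall of all genes, and −4.86 in *rna15-1*, 29.1-fold lower and at rank 4. After a further quantile normalization, over the 5449 genes only, the difference in *rna14-1* was −5.55. The signal still exceeded background on all 11 arrays, by at least 0.75.

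*HMS2* (YJR147W, chromosome X, coding length 1077 bp) followed the same course. The wild-type arrays gave log2 intensities of 10.59, 10.85, 10.49, 10.53 and 10.44. The *rna14-1* arrays gave 5.91, 5.99 and 5.74, and the *rna15-1* arrays 5.96, 6.10 and 5.72. Again no mutant array came near the wild type, the gaps being 4.45 and 4.34, and the 2 mutants overlapped. The means were 10.58 ± 0.16 (SD, n = 5) in the wild type, 5.88 ± 0.12 (SD, n = 3) in *rna14-1* and 5.93 ± 0.19 (SD, n = 3) in *rna15-1*. The log2 difference was −4.70 in *rna14-1* (26.0-fold lower, rank 2 among falls) and −4.65 in *rna15-1* (25.2-fold lower, rank 6). In *rna14-1* the next fall, that of *ERC1*, was −3.61, so *BSC1* and *HMS2* stood more than 1 log2 unit apart from all other falls there. The 2 mutants differed by 0.08 for *BSC1* and by 0.05 for *HMS2*, less than the SD within either mutant. After the further quantile normalization these differences were 0.73 and 0.58.

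*LEE1* (YPL054W, chromosome XVI, coding length 906 bp) went the other way. Its wild-type log2 intensities were 5.50, 4.80, 6.90, 6.62 and 5.96, near the low end of the measured range and unequal among the arrays. In *rna14-1* they were 10.86, 11.25 and 11.49. In *rna15-1* they were 9.83, 9.59 and 10.85. All mutant arrays lay above all wild-type arrays, with gaps of 3.96 for *rna14-1* and 2.69 for *rna15-1*. The means were 5.95 ± 0.85 (SD, n = 5) in the wild type, 11.20 ± 0.32 (SD, n = 3) in *rna14-1* and 10.09 ± 0.67 (SD, n = 3) in *rna15-1*. The log2 difference was 5.25 in *rna14-1*, 38.0-fold higher and at rank 2 among all rises, and 4.14 in *rna15-1*, 17.6-fold higher and at rank 7. *rna15-1* was 1.11 below *rna14-1* on the log2 scale, but its replicate 3 reached the lowest *rna14-1* array to within 0.0077.

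*SPG1* (YGR236C, chromosome VII, coding length 288 bp) was the only one of the 4 genes for which the mutants stood well apart. The wild-type log2 intensities were 6.17, 5.43, 6.97, 6.97 and 6.18. The *rna14-1* arrays gave 11.53, 10.71 and 11.06. The *rna15-1* arrays gave 7.48, 7.50 and 9.17. The 3 groups did not overlap, but in *rna15-1* replicates 1 and 2 lay only 0.51 above the highest wild-type array, with replicate 3 far above both. The means were 6.34 ± 0.65 (SD, n = 5), 11.10 ± 0.41 (SD, n = 3) and 8.05 ± 0.97 (SD, n = 3). The log2 difference was 4.76 in *rna14-1* (27.0-fold higher, rank 6 among rises) and 1.71 in *rna15-1* (3.26-fold higher, rank 179). Without replicate 3 of *rna15-1* the latter was 1.15. The level in *rna15-1* was 8.29-fold below that in *rna14-1*, a log2 difference of −3.05, and the nearest arrays of the mutants were 1.54 apart.

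**Figure D1:**
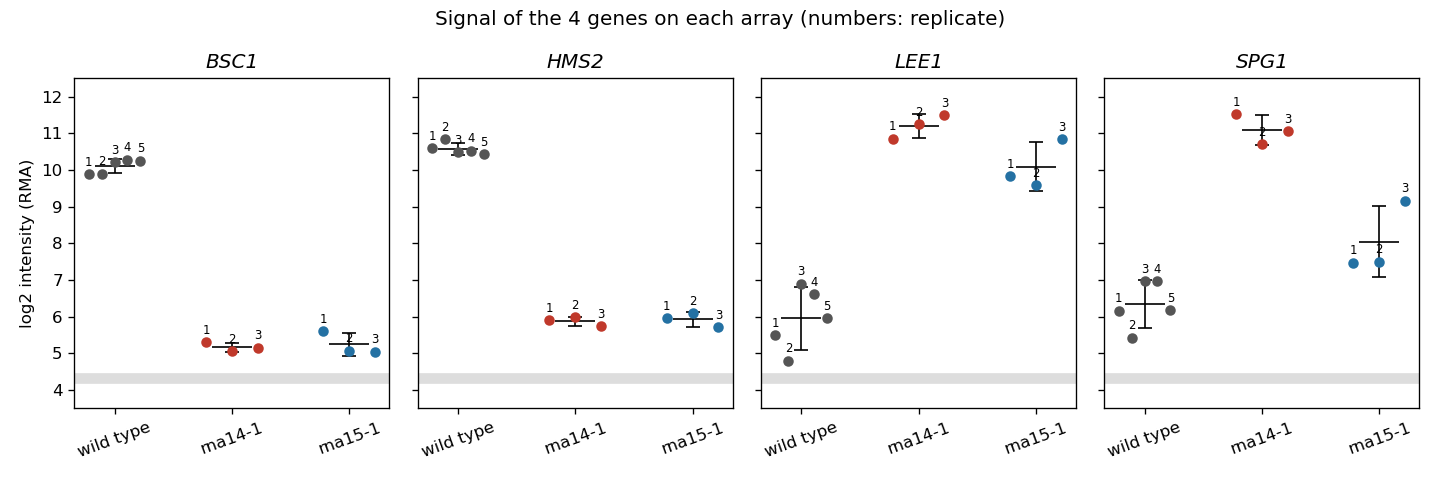
Log2 intensity after RMA (vertical axis) of *BSC1*, *HMS2*, *LEE1* and *SPG1* on each of the 11 arrays, by strain (horizontal axis). Points are arrays with their replicate number, bars are the mean ± SD, and the grey band is the range of the background over arrays. *BSC1* and *HMS2* lie near 10 in the wild type and between 5 and 6.1 in both mutants, *LEE1* is high in both mutants, and *SPG1* in *rna15-1* (7.48 to 9.17) lies between the wild type and *rna14-1*.

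The pairs also differed in how much the arrays of a group scattered. The SD within groups, pooled over the 3 strains, was 0.16 for *HMS2*, close to the median gene (0.15), and 0.22 for *BSC1*, higher than for 75.5% of genes. It was 0.70 for both *LEE1* and *SPG1*, higher than for 99.4% of genes. When each array was expressed as its deviation from its group mean, *LEE1* and *SPG1* correlated at 0.823 over 11 arrays, 0.783 without replicate 3 of *rna15-1*, and 0.975 over the 5 wild-type arrays. Of the 5104 genes ranked (mean log2 intensity above 7 and no probe set with shared sequence), 167 genes, or 3.27%, followed *LEE1* more closely than *SPG1* did. *BSC1* followed them in the wild type, at 0.815 with *LEE1* and 0.717 with *SPG1*, but less over all 11 arrays (0.268 and 0.107). *HMS2* deviated in the opposite direction, with correlations of −0.804 to *LEE1* and −0.759 to *SPG1*. These values share the same arrays and are given as a description. Replicate 3 of *rna15-1* exceeded the mean of replicates 1 and 2 by 1.14 for *LEE1* and by 1.68 for *SPG1*, while it was lower by −0.30 for *BSC1* and −0.31 for *HMS2*. In the wild type, the mean of replicates 3 to 5 exceeded that of replicates 1 and 2 by 1.34 for *LEE1* and 0.91 for *SPG1*. For *SPG1*, however, replicate 5 (6.18) was level with replicate 1 (6.17). The labels do not say in what way these arrays differed, and its part in these shifts was not tested.

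The chromosome neighbourhood of each gene was examined because polymerases that are not released at the end of one gene can enter the next one. The 3 measured genes on each side were taken in chromosome order, 24 neighbours in all. A neighbour is said to have risen or fallen where its adjusted p was below 0.01 in limma, fitted to all 11 arrays and adjusted by Benjamini-Hochberg over all 5449 genes. In the *rna14-1* strain, 8 neighbours rose and 8 fell, or 66.7%, against 62.3% of all genes called (32.8% rose and 29.5% fell). In *rna15-1*, 8 rose and 9 fell, or 70.8%, against 53% of all genes (28.2% rose and 24.7% fell). Thus the neighbours in *rna14-1* changed about as often as genes in general. Their median absolute log2 fold changes were 0.86 and 0.67, against 0.52 and 0.42 over all genes, and among the 23 neighbours above background on every array the changes of largest size were those of *PUS9* in *rna14-1* (−2.16) and *PEX21* in *rna15-1* (1.87), the latter above that of *SPG1* itself in this mutant (1.71). Between *rna15-1* and *rna14-1*, 5 neighbours were higher and 6 lower (45.8%), against 32.5% of all genes (16% higher and 16.5% lower). At the stricter thresholds of the study's methods, which also ask for a change over 2-fold, 3 neighbours were higher and 5 lower in *rna14-1* (10.1% and 7.96% of all genes), 2 and 4 in *rna15-1* (6.53% and 5.32%), and 0 and 1 between the mutants (2.02% and 2.88%). The count of higher neighbours between the mutants at the first threshold was 2 or 3 when any 1 of the *rna14-1* arrays or replicate 1 or 2 of *rna15-1* was left out.

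All 6 neighbours of *BSC1* are transcribed in the same direction as *BSC1*. Of the 6, 5 fell in each mutant while none rose (29.5% and 24.7% of all genes fell). At the methods' thresholds 3 fell in *rna14-1* and 1 in *rna15-1* (7.96% and 5.32% of all genes). *PUS9*, the next gene on the 5′ side, encodes a pseudouridine synthase for mitochondrial tRNA. Its log2 intensities were 9.18, 9.40, 9.47, 9.58 and 9.53 in the wild type, 7.49, 7.32 and 7.01 in *rna14-1*, and 8.30, 8.32 and 7.85 in *rna15-1*. No 2 groups overlapped. *PUS9* fell by a log2 fold change of −2.16 ± 0.14 (SE, adjusted p = 3.7e-07) in *rna14-1* and −1.27 ± 0.14 (adjusted p = 1.8e-05) in *rna15-1*, and the mutants differed (0.88, adjusted p = 0.0012). *SLM3*, whose product thiolates mitochondrial tRNA, was the last of the genes tested on that side and fell by −1.25 ± 0.09 (adjusted p = 5.1e-07) and −0.84 ± 0.09 (adjusted p = 1.1e-05). Between them, the glucose-sensing receptor gene *GPR1* changed least, by −0.33 (adjusted p = 0.0033) and −0.47 (adjusted p = 0.00042), and its fall in *rna14-1* missed the threshold without *rna14-1* replicate 2 (adjusted p = 0.012) or 3 (adjusted p = 0.020).

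On the 3′ side of *BSC1*, the fall became smaller with each gene. *PRM7*, a pheromone-regulated gene, was next to *BSC1* and gave 12.17, 12.32, 12.18, 12.24 and 12.23 in the wild type, 11.22, 10.95 and 11.17 in *rna14-1*, and 11.40, 11.18 and 11.15 in *rna15-1*. Both mutants were below all wild-type arrays and overlapped each other. The log2 fold changes of *PRM7* were −1.11 ± 0.08 (adjusted p = 8.2e-07) and −0.98 ± 0.08 (adjusted p = 2.6e-06). *NAT1*, which encodes a subunit of an N-terminal acetyltransferase, followed with −0.73 and −0.57. The silencing deacetylase gene *SIR2* gave −0.20 (adjusted p = 0.23) and −0.36 (adjusted p = 0.047), and did not pass. *PRM7* and *BSC1* are neighbours on one strand in the gene table used, but these arrays measure each probe set alone. They do not show whether *PRM7* and *BSC1* are separate transcripts in these strains, or whether RNAs extend from one into the other.

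The neighbours of *HMS2* moved in both directions, as did genes in general. Of the 6, 3 were called higher in *rna14-1* (share of all genes 32.8%) and 2 lower (29.5%). For *rna15-1* the counts were 4 higher (28.2% of all genes) and 2 lower (24.7%). *BAT2*, on the 3′ side, encodes the cytosolic branched-chain amino acid aminotransferase and was the nearest neighbour to fall. It gave 12.24, 12.22, 12.21, 12.19 and 12.11 in the wild type, 11.06, 11.33 and 11.23 in *rna14-1*, and 10.82, 10.86 and 10.29 in *rna15-1*. No 2 groups overlapped. *BAT2* fell by −0.99 ± 0.12 (adjusted p = 2.8e-05) in *rna14-1* and by −1.54 ± 0.12 (adjusted p = 1.8e-06) in *rna15-1*. Beyond it, YJR149W rose by 1.43 ± 0.11 (adjusted p = 1.1e-06) in *rna14-1* and 0.46 ± 0.11 (adjusted p = 0.0039) in *rna15-1*. *DAN1*, which encodes a cell wall mannoprotein of anaerobic cells and lies on the opposite strand, rose by 2.23 ± 0.26 (adjusted p = 1.8e-05) and 1.36 ± 0.26 (adjusted p = 0.00084), but in the wild type its signal exceeded background on only 2 of 5 arrays, so that the size of these changes is uncertain.

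On the 5′ side, *MGM101*, needed to maintain mitochondrial DNA, rose by 0.62 ± 0.08 (adjusted p = 3.6e-05) in *rna14-1* and 1.01 ± 0.08 (adjusted p = 1.8e-06) in *rna15-1*. *PMT4*, on the opposite strand, encodes a protein O-mannosyltransferase and fell by −1.77 ± 0.17 (adjusted p = 3.8e-06) and −1.36 ± 0.17 (adjusted p = 3.7e-05). YJR142W did not pass in *rna14-1* (−0.03) and rose by 0.44 (adjusted p = 0.00026) in *rna15-1*. The large fall of *HMS2* was therefore flanked on both sides by genes that rose and genes that fell. *RPS4A* and YJR146W, the latter overlapping *HMS2*, also lie on this side and were not analysed here.

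Around *LEE1*, 2 of 6 neighbours rose and 1 fell in each mutant. This was 50% called in each, against 62.3% of all genes in *rna14-1* and 53% in *rna15-1*. The changes were small beside that of *LEE1*. *LGE1*, next to it on the 5′ side and on the opposite strand, takes part in histone H2B ubiquitylation and gave −0.23 (adjusted p = 0.23) and −0.12 (adjusted p = 0.56). *KTR6*, next on the 3′ side and also on the opposite strand, encodes a mannosylphosphate transferase and gave −0.08 (adjusted p = 0.46) and −0.25 (adjusted p = 0.032). Neither of the genes adjacent to *LEE1* passed the test in either mutant, but after a further quantile normalization *LGE1* fell in *rna14-1* (−0.83, adjusted p = 0.00084) and *KTR6* in *rna15-1* (−0.31, adjusted p = 0.0074). *LCL1*, next but one on the 5′ side, fell by −1.15 ± 0.10 (adjusted p = 1.9e-06) and −0.96 ± 0.10 (adjusted p = 9.1e-06). The genes beyond *KTR6* rose: *OAZ1*, the antizyme gene of polyamine control, by 0.54 (adjusted p = 2.2e-05) and 0.31 (adjusted p = 0.0014), and *ARL3*, encoding an Arf-like GTPase, by 1.28 (adjusted p = 5.5e-07) and 0.63 (adjusted p = 0.0001). *SUR1*, a gene of sphingolipid mannosylation, passed only between the mutants, at −0.48 (adjusted p = 0.0024), and without *rna15-1* replicate 2 this adjusted p was 0.012.

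The genes on the 5′ side of *SPG1* rose in *rna14-1*, all 3 of them on the strand of *SPG1* (32.8% of all genes rose there). YGR237C, the nearest, gave 10.24, 10.40, 10.05, 10.01 and 9.76 in the wild type, 11.78, 11.40 and 11.41 in *rna14-1*, and 9.83, 9.61 and 10.67 in *rna15-1*. The *rna14-1* arrays were above all others, whereas *rna15-1* spanned the wild-type values, with replicate 3 highest. YGR237C rose by 1.44 ± 0.22 (adjusted p = 0.00016) in *rna14-1* and gave −0.06 ± 0.22 (adjusted p = 0.83) in *rna15-1*, and the mutants differed by −1.50 (adjusted p = 0.00078). The kelch protein gene *KEL2* rose by 1.38 ± 0.28 (adjusted p = 0.001) in *rna14-1* and gave 0.70 ± 0.28 (adjusted p = 0.046) in *rna15-1*. Its 3 *rna15-1* arrays gave 9.46, 9.35 and 10.76, so replicate 3 was again the high one, and without that array *KEL2* was lower in *rna15-1* than in *rna14-1* (−1.13, adjusted p = 0.00026, against −0.68 and 0.096 with it). The peroxin gene *PEX21* rose in both mutants, by 1.17 (adjusted p = 0.0001) and 1.87 (adjusted p = 5e-06), and the difference between them, 0.70, did not pass (adjusted p = 0.012), although it did without *rna15-1* replicate 1 (0.85, adjusted p = 0.0086) or 3 (0.42, adjusted p = 0.0028).

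On the 3′ side of *SPG1*, no gene passed the test in *rna14-1*, where 62.3% of all genes did. *MIC26*, encoding a subunit of the mitochondrial MICOS complex, gave 0.29 (adjusted p = 0.043) in *rna14-1* and rose by 0.84 (adjusted p = 9.6e-05) in *rna15-1*. Without *rna15-1* replicate 3, whose spread enters the error shared by all strains, the adjusted p in *rna14-1* was 0.00059. The flavohaemoglobin gene *YHB1* gave −0.10 and −0.05. *PHO81*, whose product inhibits the cyclin-dependent kinase of the phosphate pathway, gave −0.07 (adjusted p = 0.31) in *rna14-1* and fell by −1.14 ± 0.06 (adjusted p = 1.5e-07) in *rna15-1*.

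**Figure D2:**
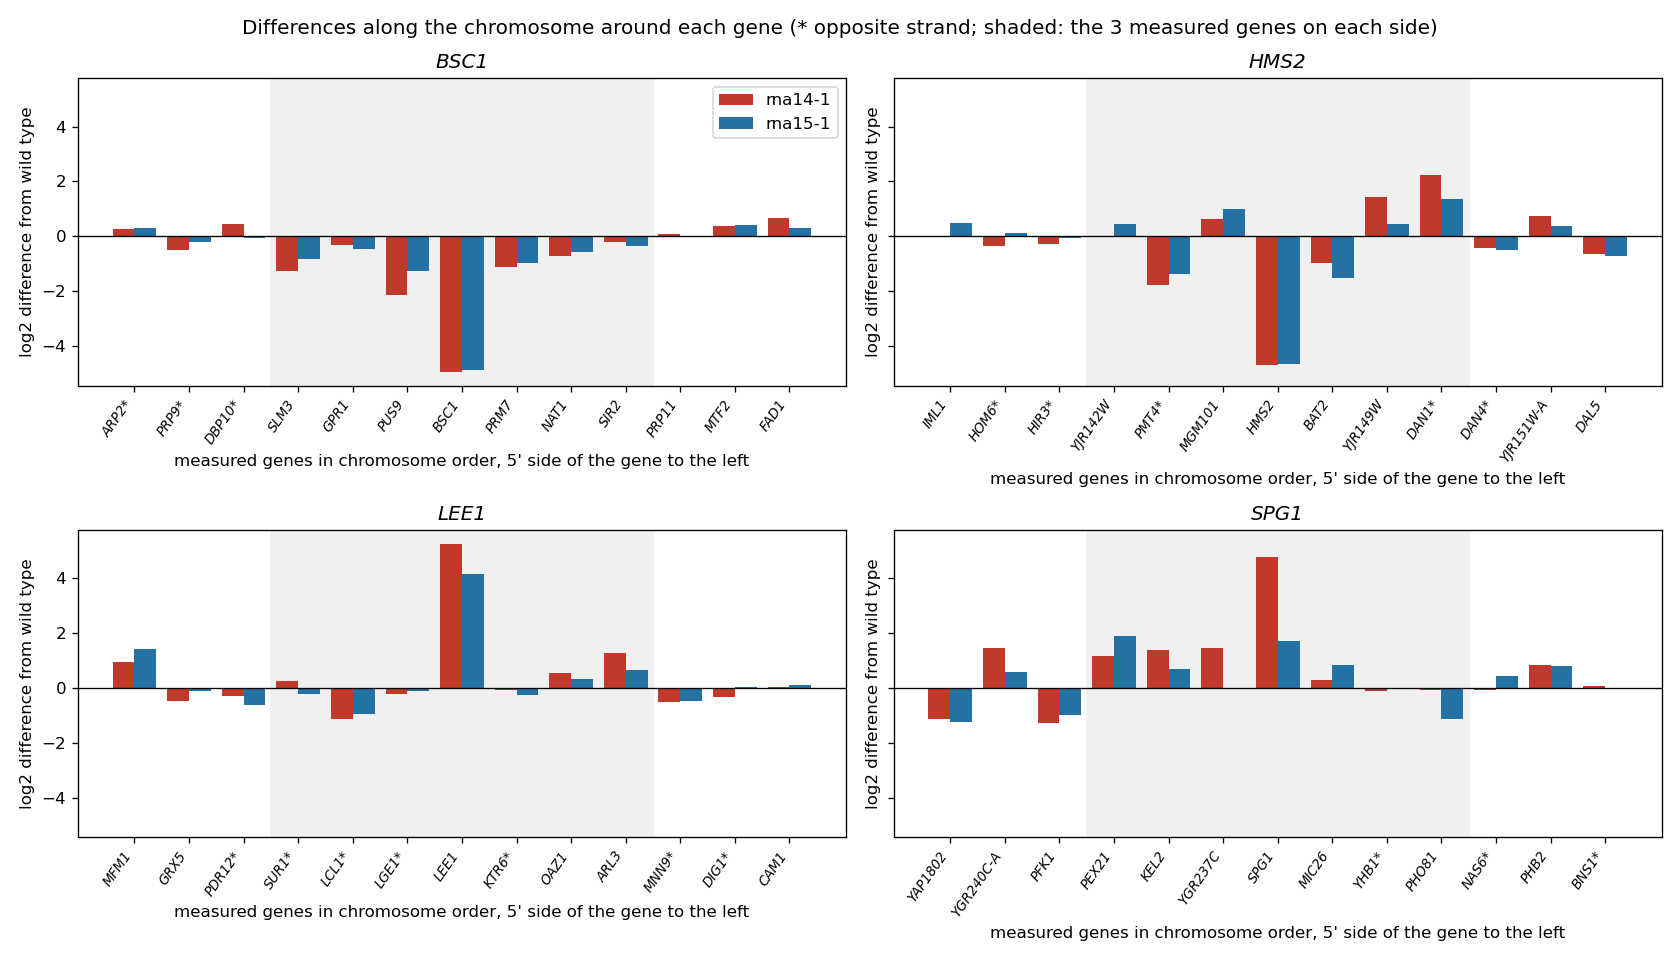
Log2 difference from the wild type (vertical axis) in *rna14-1* (red) and *rna15-1* (blue) of each of the 4 genes and the 6 measured genes on each side in chromosome order (horizontal axis, 5′ side of the gene to the left, not to scale). The 3 tested on each side are shaded and an asterisk marks the opposite strand. All bars in the shaded part around *BSC1* point down, whereas those around *HMS2*, *LEE1* and *SPG1* point both ways and stay within 2.3 of 0.

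Relatives of the 4 genes were examined next, from lists of genes of like name, family or condition. These lists were chosen with earlier results of these data known. *BSC4*, *BSC5* and *BSC6* are the other bypass of stop codon genes measured. Of these 3, 1 passed, *BSC5*, which rose by 0.91 ± 0.24 (adjusted p = 0.0053) in *rna14-1*, and this value was −0.012 after quantile normalization and did not pass without wild-type replicate 5 or *rna14-1* replicate 1 or 2 (adjusted p = 0.013, 0.029 and 0.019). No member passed in *rna15-1* and none was called lower in either mutant. The wild-type means of *BSC4* (5.93) and *BSC5* (6.09) lay near background, so a fall as large as that of *BSC1* could not be seen in them. Only *BSC6*, with a wild-type mean of 10.29, left room for such a fall. *BSC6* gave −0.59 (adjusted p = 0.016, passing without wild-type replicate 1 or 2 at 0.0072 and 0.0035) and −0.27 (adjusted p = 0.23). The flocculins, cell wall proteins that hold cells together, changed differently in the mutants. All 4 measured rose in *rna14-1*, whereas *rna15-1* had 2 rises and 2 falls (over all genes, 32.8% rose in *rna14-1*, and in *rna15-1* the shares were 28.2% higher and 24.7% lower). *FLO11*, which *BSC1* resembles, rose by 1.19 ± 0.14 (adjusted p = 1.7e-05) and 1.73 ± 0.14 (adjusted p = 1.9e-06), opposite to *BSC1*. *FLO10* rose by 0.57 (adjusted p = 0.0016) and 0.47 (adjusted p = 0.0061), of which the former missed the threshold without *rna14-1* replicate 3 (adjusted p = 0.011) and the latter without any 1 of 6 arrays, among them *rna15-1* replicate 3 (adjusted p = 0.022). *FLO1* rose in *rna14-1* by 2.75 ± 0.15 (adjusted p = 1.3e-07) and was not above background on any *rna15-1* array. Its level there was at least 1.84-fold below the wild type (adjusted p = 1.5e-06) and at least 12.3-fold below *rna14-1* (adjusted p = 1.6e-08), these bounds setting the mean of the brighter group against the mean background of the dimmer one. *FLO9* rose by 1.40 (adjusted p = 1.3e-06) and fell by −0.77 (adjusted p = 0.00013), on a probe set that may also detect other genes. *FLO1* and *FLO9* lie on chromosome I, and *FLO1* is the next measured gene after *SWH1*, which fell by −6.18 (adjusted p = 5.7e-13) in *rna15-1* together with *UIP3* (−8.52) and *YAT1* (−6.27) nearby, genes named here after their values were seen. In the same region *PRM9* (−4.61) and YAR064W (−1.86) also fell in *rna15-1*. *MST28* (0.68, adjusted p = 0.067) and YAR035C-A (−0.44, adjusted p = 0.17) there did not pass. The part of this chromosome stretch in the low *FLO1* signal of *rna15-1* was not tested.

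The heat shock factor family, to which *HMS2* is related, fell in 3 of 4 members in *rna14-1* and 4 of 4 in *rna15-1* (29.5% and 24.7% of all genes fell), and none rose. The median log2 fold change was −1.24 and −0.80, against 0.00 and 0.03 over all genes. *MGA1*, a suppressor of pseudohyphal growth defects, fell by −1.84 ± 0.24 (adjusted p = 4e-05) and −2.96 ± 0.24 (adjusted p = 2e-06). *SFL1*, a repressor of flocculin genes, fell by −2.25 ± 0.13 (adjusted p = 1.8e-07) and −0.84 ± 0.13 (adjusted p = 0.00023), and the mutants differed (1.41, adjusted p = 3.9e-05). *HSF1*, the essential heat shock factor itself, fell by −0.65 (adjusted p = 0.00097) and −0.76 (adjusted p = 0.00043), and *SKN7*, a response regulator of oxidative stress, gave 0.18 (adjusted p = 0.037) and fell by −0.39 (adjusted p = 0.00064). In none of them did the fall reach that of *HMS2*.

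Among 9 genes of ammonium transport and filamentous growth, 6 changed in *rna14-1*, of which 5 upward, and 6 in *rna15-1*, of which 4 upward, counts near the 62.3% and 53% of all genes that changed. *MEP2*, the permease whose loss *HMS2* can compensate in filamentous growth, gave 0.06 (adjusted p = 0.76) and −0.27 (adjusted p = 0.21). *HMS1*, found in the same way as *HMS2*, rose by 0.98 ± 0.20 (adjusted p = 0.0011) and 1.06 ± 0.20 (adjusted p = 0.00081), opposite to *HMS2*. *PHD1*, an activator of pseudohyphal growth, rose by 1.85 (adjusted p = 1.1e-06) and 0.95 (adjusted p = 0.00019), and *SOK2*, a repressor of it, fell by −0.83 (adjusted p = 7.1e-05) and −0.69 (adjusted p = 0.00035). *TEC1*, a factor of invasive growth, rose by 0.55 (adjusted p = 0.00013) and 1.30 (adjusted p = 5.1e-07). *FLO8*, an activator of *FLO11*, rose by 1.25 (adjusted p = 4.3e-05) in *rna14-1*, and in *rna15-1* by 0.57 at the threshold itself (adjusted p = 0.009999), so that omission of any 1 of 9 arrays ended that call. *STE12*, the factor of the mating and filamentation pathways, rose by 1.03 (adjusted p = 0.0006) in *rna14-1* and gave 0.44 (adjusted p = 0.063) in *rna15-1*. The ammonium permease gene *MEP3* fell by −1.06 (adjusted p = 0.00078) in *rna15-1* and gave −0.63 (adjusted p = 0.015) in *rna14-1*, which passed without *rna15-1* replicate 3 (adjusted p = 9.9e-05).

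Of 5 other genes for CCCH zinc finger proteins, the *rna14-1* cells had 4 that rose and the *rna15-1* cells 2, with no falls (32.8% and 28.2% of all genes rose). *TIS11*, which encodes a protein that targets mRNAs for decay in iron shortage, rose by 1.80 ± 0.39 (adjusted p = 0.0015) in *rna14-1* and gave 0.22 ± 0.39 (adjusted p = 0.63) in *rna15-1*, where replicate 3 exceeded the mean of the other arrays by 1.73. *CTH1*, its paralogue, rose by 0.66 (adjusted p = 7.8e-05) and gave 0.26 (adjusted p = 0.029). *YTH1*, for a subunit of the cleavage and polyadenylation factor, rose by 0.46 (adjusted p = 0.0014) and 0.47 (adjusted p = 0.0015), and the splicing factor gene *CWC2* by 0.52 (adjusted p = 0.00027) and 0.41 (adjusted p = 0.0017). *NAB2*, for a nuclear poly(A)-binding protein, gave −0.17 and −0.18 (both adjusted p = 0.11).

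The stationary phase list, 9 measured genes besides *SPG1* that are known for high expression or a role as growth ceases, rose as a whole in *rna14-1* (9 of 9, median log2 fold change 2.07, against 32.8% and a median of 0.00 over all genes). In *rna15-1* 6 of 9 rose and none fell (median 1.47, against 28.2% and 0.03 over all genes), and the count was also 6 without replicate 3. As the list was chosen with earlier results of these data known, these counts are no independent support. *SPG4*, found together with *SPG1*, was the one of the 9 whose deviations from the group means followed those of *SPG1* most closely (0.960). Its log2 intensities were 8.42, 7.31, 9.12, 9.13 and 8.41 in the wild type, 13.00, 12.76 and 13.06 in *rna14-1*, and 10.52, 10.82 and 12.85 in *rna15-1*. As for *SPG1*, wild-type replicate 2 was lowest and *rna15-1* replicate 3 was far above the others of its group. Here that array also exceeded the lowest *rna14-1* array, so the mutants overlapped, which they did not for *SPG1*. *SPG4* rose by 4.46 ± 0.53 (adjusted p = 2e-05) and 2.92 ± 0.53 (adjusted p = 0.00059). *SPG5*, a proteasome regulator of stationary phase, rose by 2.91 (adjusted p = 2.2e-06) and 1.76 (adjusted p = 0.00012), whereas *SPG3* rose by only 0.75 (adjusted p = 0.00012) and gave 0.31 (adjusted p = 0.033).

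Other genes of that list followed. *HSP12*, for a small membrane-protecting heat shock protein, rose by 2.71 (adjusted p = 2.8e-06) and 2.02 (adjusted p = 3.3e-05), and *HSP26*, for a small chaperone, by 2.00 (adjusted p = 0.00043) and 1.44 (adjusted p = 0.0044). The latter missed the threshold without wild-type replicate 2 or 5 (adjusted p = 0.010 and 0.011). The vitamin B6 genes *SNZ1* and *SNO1* rose by 2.30 (adjusted p = 4.3e-07) and 2.07 (adjusted p = 0.00017) in *rna14-1*. In *rna15-1*, *SNZ1* rose by 1.76 (adjusted p = 3.5e-06) and *SNO1* gave 1.08 (adjusted p = 0.013). *SIP18*, a desiccation gene, rose by 1.97 (adjusted p = 0.00036) and gave 0.86 (adjusted p = 0.047), and the cell wall glycoprotein gene *YGP1* rose by 1.00 (adjusted p = 8.1e-07) and 1.47 (adjusted p = 8.9e-08). A difference between the mutants passed in 2 of these 9 genes, against 32.5% of all genes, and in opposite directions, *SPG5* being lower in *rna15-1* (−1.15, adjusted p = 0.0064) and *YGP1* higher (0.47, adjusted p = 0.001). The call for *SPG5* was lost without any 1 of the *rna14-1* arrays, wild-type replicate 4, or *rna15-1* replicate 1 or 2. Without *rna15-1* replicate 3, *SPG4* (−2.27, adjusted p = 0.0016), *SIP18* (−1.64, adjusted p = 0.00023), *HSP26* (−1.14, adjusted p = 0.00089), *HSP12* (−0.96, adjusted p = 0.0076) and *SNZ1* (−0.66, adjusted p = 0.0086) were also lower in *rna15-1*.

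**Figure D3:**
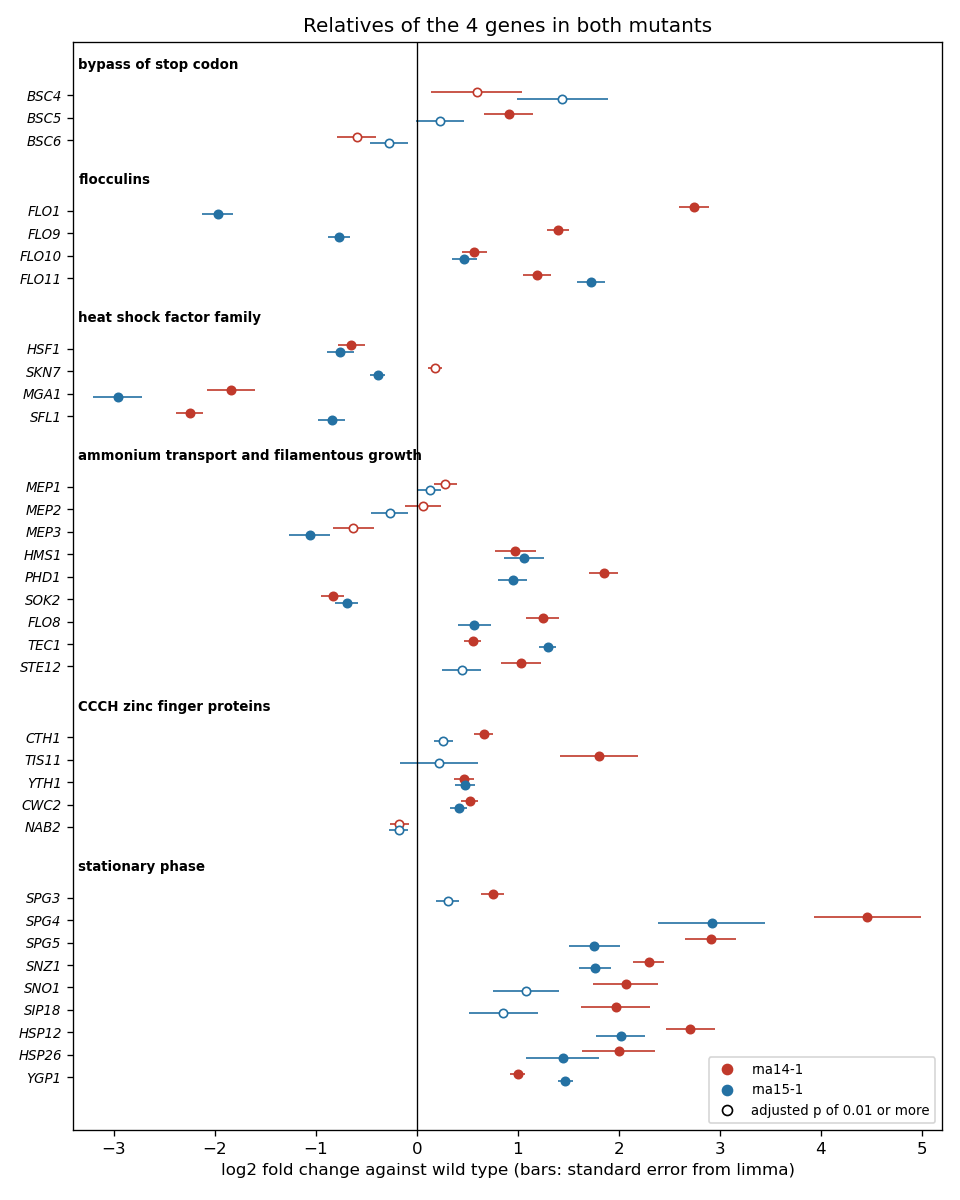
Log2 fold change against the wild type (horizontal axis) of the genes in the 6 lists (vertical axis) in *rna14-1* (red) and *rna15-1* (blue), with standard errors from limma. Filled points passed an adjusted p of 0.01. Stationary phase genes lie to the right of 0 in both mutants, with *SPG4* farthest at 4.46, and the heat shock factor family lies mostly to the left, with *MGA1* farthest at −2.96.

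The deviations of the 9 genes from their group means correlated with those of *SPG1* at 0.131 to 0.960 (median 0.770, against −0.05 over all genes) and with those of *LEE1* at 0.0012 to 0.898 (median 0.742, against −0.03). The highest values were those of *SPG4* with *SPG1* (0.960) and *HSP12* with *LEE1* (0.898), and the lowest were those of *SPG3*. On *rna15-1* replicate 3 all 9 exceeded the mean of its replicates 1 and 2, by a median of 0.81. These are correlations over the same 11 arrays, described without a test, and whether the cultures differed in growth stage was not tested.

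**Figure D4:**
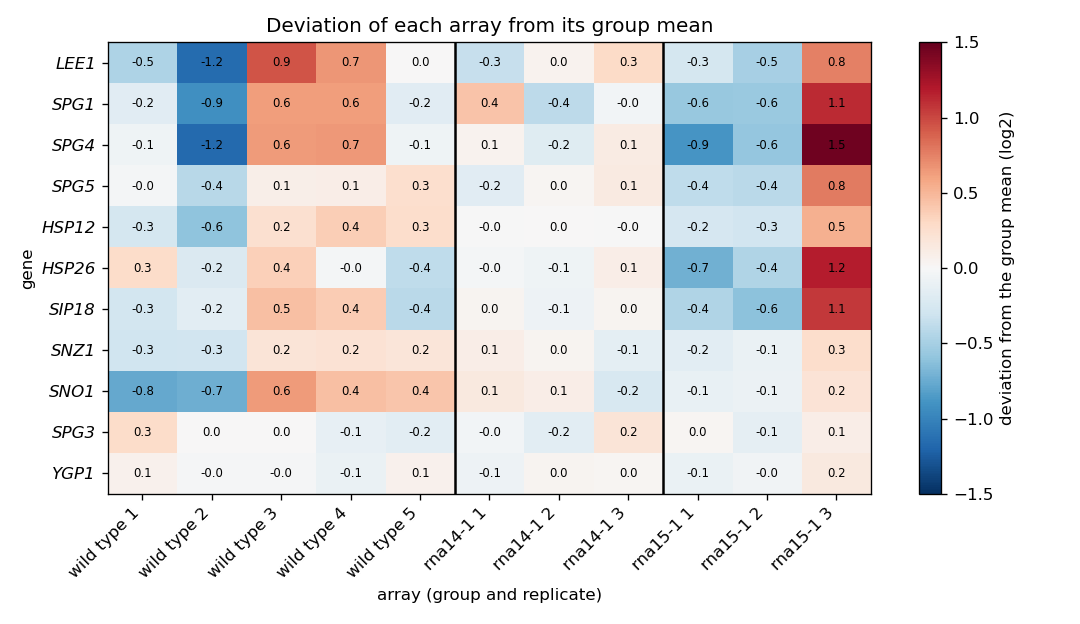
Deviation of each array (horizontal axis, strain and replicate) from its group mean, in log2 units (colour and printed value), for *LEE1*, *SPG1* and the 9 stationary phase genes (vertical axis). *rna15-1* replicate 3 is positive in every row and wild-type replicate 2 is strongly negative for *LEE1* and *SPG1*, while the *rna14-1* arrays stay near 0 for most genes.

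Genes with the most similar profiles were found by Pearson's r over the 11 arrays among the 5104 ranked genes, the 5 closest being named for each. For *BSC1* these were *AKR2*, *VHC1*, *OPT1*, *ATF1* and *NAM7* (r from 0.994 to 0.992), and for *HMS2* they were *NAM7*, *ATF1*, *VHC1*, *VPH1* and *USA1* (r from 0.996 to 0.994). The lists share *NAM7*, which encodes the nonsense-mediated decay helicase Upf1, *ATF1*, for an alcohol acetyltransferase, and *VHC1*, for a vacuolar cation-chloride cotransporter. *BSC1* and *HMS2* themselves correlated at 0.994. Likeness here is one of shape and not of size, since *ATF1* differed from the wild type by −2.06 and −1.83 and *NAM7* by −1.25 and −1.18. For *LEE1* the closest genes were *SSP1*, *ATG39*, *HSP12*, *CTK2* and *SRT1* (r from 0.993 to 0.990). *SSP1* is a gene of spore formation and *ATG39* encodes a receptor for autophagy of the nucleus, with differences of 2.16 and 3.78 in *rna14-1* and 1.56 and 3.06 in *rna15-1*. For *SPG1* they were *SIT4*, *STS1*, *PET18*, *PES4* and *NSL1* (r from 0.989 to 0.986), all with a larger difference in *rna14-1* than in *rna15-1*, as *PES4* with 3.55 and 1.73. Profiles of this kind were common in these arrays: 296 genes (5.80%) had an r above 0.95 with *BSC1*, 301 (5.90%) with *HMS2*, 239 (4.68%) with *LEE1* and 162 (3.17%) with *SPG1*. As the strain differences chosen for dominate these correlations, they carry no test.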

How the data were processed

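The authors deposited log2 intensities of Affymetrix yeast arrays (*S. cerevisiae* and *Schizosaccharomyces pombe* probe sets), summarised with RMA per the methods. The submitters' processing notes name GCOS, RMA and limma. Versions are not given in the sources used here. Of 10928 probe sets, 7244 were annotated to 1 gene and 5498 of these to *S. cerevisiae*, and the brightest probe set of each gene was kept (5449 genes). The background came from 1746 named probe sets whose gene is not in the *S. cerevisiae* gene table. Groups came from the sample labels, which call the arrays biological replicates, and the number of arrays limits the precision.

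limma (3.58.1, R 4.3.3) was fitted with 1 coefficient per strain over all 11 arrays, with Benjamini-Hochberg adjustment over all genes and a threshold of 0.01. The methods' call also asks for B above 2, mean log2 intensity above 7 and a change over 2-fold, and was tried as an alternative. The fit was tested on simulated data. Gene order, strand and coding length were taken from the NCBI RefSeq gene table. Named genes were the 4 genes, the 3 measured genes on each side of each, the 5 most alike by r, and the related genes. The genes and lists were chosen with earlier results of these data known. The deviations of same-numbered arrays of different strains correlated at −0.138 to 0.344. Arrays with differing numbers were not compared in this way, so these values cannot decide whether replicate numbers are pairs. Replicate numbers were not taken as pairs in the main fit, and a fit with them as a block was tried as an alternative.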

Additional observations from a re-analysis of the deposited data

Results flagged for a closer look

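Over *BSC1*, *HMS2*, *LEE1*, *SPG1*, their neighbours and related genes, 62 sets of 5 wild-type arrays were searched for 1 array far from the others, as a share of the group's range, and 3 stood out (chance gives about 1 in 20). *DAN1* was highest on wild-type replicate 3, at 5.27, with a ratio of gap to range of 0.877. *SUR1* was lowest on wild-type replicate 1, at 11.82, with a ratio of 0.794. *STE12* was lowest on 1 wild-type array, at 10.96, with a ratio of 0.752. None of *BSC1*, *HMS2*, *LEE1* and *SPG1* had such an array in the wild type, and groups of 3 arrays were not searched.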

How the results depend on the processing

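Across 14 alternatives, the log2 differences of *BSC1*, *HMS2*, *LEE1* and *SPG1* from the wild type kept their direction, and with 1 array left out they ranged from −5.00 to −4.88, −4.75 to −4.63, 4.96 to 5.48 and 4.53 to 4.95 in *rna14-1*, and from −5.04 to −4.76, −4.74 to −4.55, 3.75 to 4.39 and 1.15 to 1.99 in *rna15-1*. A further quantile normalization, over the 5449 genes only, moved *BSC1* and *HMS2* in *rna14-1* to −5.55 and −5.27. It moved their differences between *rna15-1* and *rna14-1* to 0.73 and 0.58, and turned *BSC5* in *rna14-1* from 0.91 to −0.012. The cause was not tested. At the methods' thresholds, by construction stricter, the neighbours called higher numbered 3 in *rna14-1*, 2 in *rna15-1* and 0 between the mutants, those called lower 5, 4 and 1, and the related genes 8, 6 and 1 higher against 2, 1 and 1 lower. The 5 neighbours higher in *rna15-1* than in *rna14-1* were 2 with wild-type replicates 1 to 3 only, 2 with only these groups fitted, and 2 to 7 with 1 array left out. The 7 related genes lower in that comparison were 4 to 14, the latter without *rna15-1* replicate 3 and the former without any 1 of the *rna14-1* arrays or *rna15-1* replicate 1 or 2. With the replicate number as a block (wild-type replicates 4 and 5 then have no partner and carry no weight), the neighbours higher between the mutants were 3, and the falls of *GPR1* in both mutants (adjusted p = 0.038 and 0.010) and the rises of *KEL2* in *rna14-1* (0.017) and YJR149W in *rna15-1* (0.020) missed the threshold, as did those of *HMS1* in both (0.018 and 0.015), *BSC5* in *rna14-1* (0.023), *FLO8* and *HSP26* in *rna15-1* (0.027 and 0.016) the fall of *MEP3* in *rna15-1* (0.011) and the difference of *SUR1* between the mutants (0.016). YJR149W in *rna15-1* also missed it with wild-type replicates 1 to 3 only (0.015) and with only the groups compared (0.011). Precision is limited by 3 arrays per mutant, and among the related genes the standard errors against the wild type were highest for *SPG4* (0.53), *BSC4* (0.45) and *TIS11* (0.39).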
